A study of Homo sapiens with 4 samples.

Results

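ICAM1, CD58 and 8 further genes that encode surface ligands of the immune synapse were followed in TPC1 thyroid cancer cells under an inhibitor of the FGF receptors. The 10 genes are ICAM1, ICAM2, ICAM3, VCAM1, CD58, CD47, CD274, CD276, PVR and ALCAM. They were taken by symbol from a table of 20372 genes, and 8 of them passed the filter on low counts. The set was put together with the 24 h against 6 h difference already known, in which ICAM1 and CD58 lay on opposite sides of 0. Differences between the times are therefore given as a description, and no p-value is given for any of the 10 genes.

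TPC1 cells derive from a papillary thyroid carcinoma and harbor CCDC6-RET, and all libraries come from this 1 line. Cells received BGJ398, a kinase inhibitor selective for FGF receptors, and were harvested after 6 h (2 libraries) or 24 h (2 libraries). The dose reads 100 micromolar in the labels and nanomolar, with the same figure, in the study's methods, so it is not settled here. No vehicle or untreated library was analysed here, so the values compare a late with an early time of inhibitor and not inhibitor with none. The study asks how FGF receptor signaling contributes to adaptive resistance of RET-rearranged cells, and the comparison shows how the ligand transcripts under FGFR inhibition differed between the 2 times.

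The immune synapse is the contact between a T cell or natural killer cell and its target. Adhesion ligands on the target hold the contact together, with ICAM1 binding the leukocyte integrin LFA-1 and CD58 binding CD2. Other ligands on the target raise or restrain the response, such as CD274 (PD-L1), which engages the inhibitory receptor PD-1. Thyroid epithelial cells are not leukocytes but carry several of these ligands, and ICAM1 is known as a gene induced by inflammatory cytokines through NF-kB. All 10 proteins belong to the immunoglobulin superfamily.

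The sequences before the starts of 3 of the genes are shown because ICAM1, CD58 and VCAM1 stood for the gene that was lower, the gene that was higher and the gene that was close to absent. RefSeq windows on GRCh38.p14 matched 9 of the 10 genes (12 windows, as CD276 and ICAM3 have more than 1 start). ICAM2 was not matched. Each run gives the 250 bases before the start, 5′ to 3′ on the strand of the gene, for ICAM1 at chr19:10270870-10271119 (plus strand), CD58 at chr1:116571027-116571276 (minus strand) and VCAM1 at chr1:100719492-100719741 (plus strand). Capitals mark every match to 1 of 7 motifs on either strand, namely the kappaB consensus, the kappaB form GGAANTTCC, the STAT motif TTCNNNGAA, the interferon-stimulated response element (ISRE), the AP-1 motif TGANTCA, the Sp1 motif GGGCGG and the TATA box TATAAA.
ICAM1: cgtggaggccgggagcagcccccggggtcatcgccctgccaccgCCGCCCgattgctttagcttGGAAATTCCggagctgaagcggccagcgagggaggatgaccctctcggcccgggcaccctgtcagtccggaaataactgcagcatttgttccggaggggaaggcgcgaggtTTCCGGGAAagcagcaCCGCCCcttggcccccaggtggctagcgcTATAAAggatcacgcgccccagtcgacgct
CD58: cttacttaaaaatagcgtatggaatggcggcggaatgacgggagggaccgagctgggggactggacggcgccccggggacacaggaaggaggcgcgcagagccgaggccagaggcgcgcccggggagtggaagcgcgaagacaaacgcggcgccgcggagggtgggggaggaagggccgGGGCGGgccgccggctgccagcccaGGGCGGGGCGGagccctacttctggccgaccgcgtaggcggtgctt
VCAM1: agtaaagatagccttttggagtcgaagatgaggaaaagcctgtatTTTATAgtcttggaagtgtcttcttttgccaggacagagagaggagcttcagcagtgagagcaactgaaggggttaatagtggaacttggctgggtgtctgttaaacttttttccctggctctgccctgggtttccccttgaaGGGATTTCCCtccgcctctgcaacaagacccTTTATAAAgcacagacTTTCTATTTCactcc

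The ICAM1 window held the kappaB form as GGAAATTCC, 186 to 178 bases before the start, a STAT motif as TTCCGGGAA at 75 to 67 bases and a TATA box at 30 to 25 bases. It also held 2 Sp1 motifs, but no match to the kappaB consensus, the ISRE or the AP-1 motif. GGAANTTCC was present in 0.826% of 35116 RefSeq windows of the same length, the STAT motif in 6.57% and the TATA box in 10.7%. The CD58 window had no match to these 3 motifs, nor to the kappaB consensus, the ISRE or the AP-1 motif. It held 3 Sp1 motifs, of which 2 overlapped by a base, in a window with a GC content of 72%, whereas 42.6% of all windows held an Sp1 motif. The VCAM1 window had a GC content of 46% and a kappaB consensus that read on both strands, GGGATTTCCC at 62 to 53 bases, which 5.21% of windows held. It also held an ISRE, found in 3.02% of windows, and 3 TATA matches, of which 2 overlapped. Among the other genes CD274 held 2 overlapping ISREs and a STAT motif, and CD47 and the first CD276 window held 6 and 7 Sp1 motifs. None of the 9 matched genes held the AP-1 motif, which was in 6.57% of windows. A match is a string of letters and was not tested as a binding site.

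Libraries held between 24958447 and 26325512 counts. Levels are CPM (counts per 1000000, with each total multiplied by its TMM factor from edgeR), as mean ± SD of 2 libraries unless stated. Each fold change is the log2 of 24 h over 6 h in the edgeR fit with its standard error (SE). Nothing states that replicates came from separate cultures, so SD and SE rest on these libraries only, whose spread may be technical. The SE draws on the spread of all tested genes in the edgeR fit and is not the spread of 1 gene. The pooled SD of log2 CPM within a time was 0.353 for ICAM1 and 0.373 for CD58, above their SE of 0.20 and 0.21. For ICAM3 and ALCAM it was 0.0435 and 0.0348, below their SE of 0.13 and 0.11. In bulk libraries fewer cells with a transcript and less of it per cell cannot be told apart. Of the thyroid markers PAX8, a lineage factor, averaged 985 ± 39.0 (24 h) and 1067 ± 1.95 CPM (6 h), followed by TG, the thyroglobulin gene, at 14.3 and 15.2 CPM and FOXE1 at 12.3 and 15.4 CPM. The thyroid genes NKX2-1 and TSHR had 0 counts in all 4 libraries. Among epithelial genes KRT8 was at 75.1 and 81.3 CPM and KRT18 at 65.7 and 74.4 CPM, KRT7 at 7.72 and 6.35 CPM, while EPCAM had 2 to 8 counts and CDH1 0 to 1. Leukocyte genes were close to absent: 5 of 8 lymphocyte markers had no count, PTPRC (CD45) had 2 to 6 counts, and the 8 summed to between 0.362 and 0.595 CPM at 24 h and between 0.204 and 0.223 CPM at 6 h. The 8 myeloid markers summed to between 4.53 and 4.95 CPM, led by CSF1R, FCER1G and CD14, with AIF1, TYROBP and FCGR3A at 0. The 8 fibroblast markers summed to between 12.8 and 16.1 CPM, led by PDGFRB and COL1A1, with COL1A2, DCN and FAP at 0 counts and LUM at 21 to 33. The 8 endothelial markers summed to between 22.8 and 28.1 CPM at 24 h and between 26.8 and 34.2 CPM at 6 h, of which TIE1 alone gave 19.1 and 23.1 CPM and KDR 4.35 and 5.98 CPM, with ERG at 1.40 and 1.14 CPM and CDH5 at 0 to 1 count. The part of these genes in any ligand difference was not tested.

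**Figure D1:**
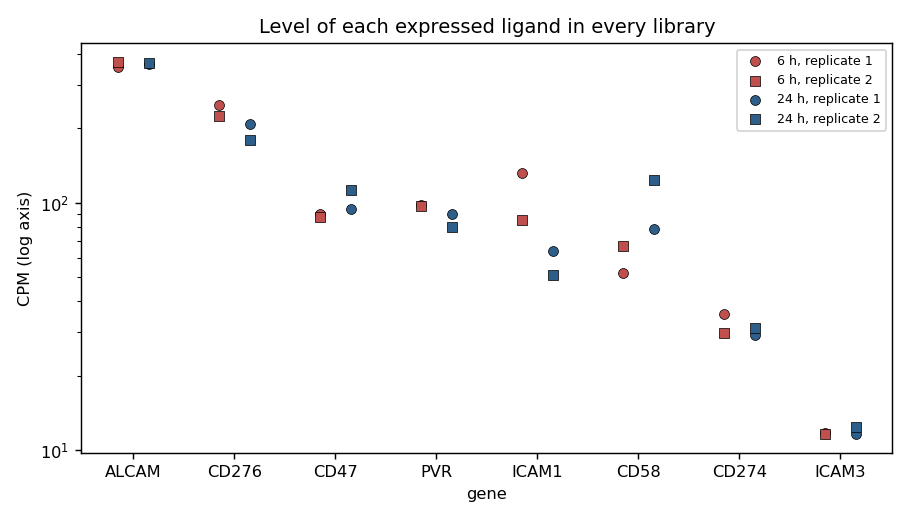
CPM on a log axis for the 8 genes that passed the filter, with 6 h libraries in red, 24 h libraries in blue, replicate 1 as circles and replicate 2 as squares. ICAM1 and CD58 spread most between libraries, from 51.3 to 132 CPM and from 52.2 to 124 CPM, while ALCAM stayed between 353 and 370 CPM.

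Among the integrin ligands ICAM1 had the highest level, and it was lower at 24 h than at 6 h. ICAM1 (ENSG00000090339, hg19 chromosome 19, 10381511 to 10397291) was at 132 and 84.9 CPM in replicates 1 and 2 at 6 h and at 63.7 and 51.3 CPM at 24 h. Both 24 h libraries lay below both 6 h libraries, and 6 h replicate 1 was the highest of the 4. The log2 fold change was -0.91 ± 0.20 (SE), or a level at 24 h of 0.531 times that at 6 h. Only 29 of 12549 tested genes had a lower fold change. Replicate 2 was below replicate 1 at both times, by a log2 difference of -0.31 at 24 h and -0.63 at 6 h, so the libraries of 1 time differed in the direction of time. Without 6 h replicate 1 the fold change was -0.56 and without 6 h replicate 2 it was -1.20. ICAM4, which begins 351 bases after the end of ICAM1 and encodes a red cell integrin ligand, had 2 to 6 counts.

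ICAM3, a leukocyte ligand of LFA-1 (ENSG00000076662, chromosome 19, 10444452 to 10450499), was nearly level across the libraries. It was at 11.8 and 11.7 CPM at 6 h and at 11.7 and 12.4 CPM at 24 h, and the times overlapped. Its log2 fold change was 0.041 ± 0.13 (SE). RAVER1 lies 135 bases from it and had 620 to 988 counts where ICAM3 had 289 to 314. ICAM1 counts were 11.2 and 7.29 times those of ICAM3 at 6 h and 5.45 and 4.13 times at 24 h. VCAM1, the ligand of the integrin VLA-4 and typical of activated endothelium, was seen as 3 and 1 counts (6 h) and as 7 and 1 counts (24 h). The exact 95% Poisson interval of its highest count, 7, ran from 2.81 to 14.4. ICAM2, a ligand of LFA-1 on endothelium and leukocytes, had 0 counts in all 4 libraries. With 3 counts per library set as the limit, which bounds a count of 0 from above only at 95%, its level could be up to 0.122 CPM. The exact 95% Poisson interval of a count of 0, which allows for error at both ends, reached further, to 3.69 counts. Intervals and limits cover counting error only. Neither gene passed the filter, and no fold change is given for them.

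CD58, the ligand of the T cell and natural killer cell receptor CD2 (ENSG00000116815, chromosome 1, 117057157 to 117113661), ran opposite to ICAM1. It was at 52.2 and 66.7 CPM in replicates 1 and 2 at 6 h and at 78.6 and 124 CPM at 24 h. Both 24 h libraries lay above both 6 h libraries, and 24 h replicate 2 stood highest. The log2 fold change was 0.77 ± 0.21 (SE), a ratio of 1.70, and 224 of 12549 tested genes had a higher one. Replicate 2 was above replicate 1 at both times, by 0.66 at 24 h and 0.35 at 6 h on the log2 scale, again in the direction of time. Without 24 h replicate 2 the fold change was 0.40, and without 24 h replicate 1 it was 1.05. With a trend on transcript length and GC content removed from each library it was 0.28.

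The balance of the 2 adhesion ligands can be read within each library, where it does not depend on how libraries are scaled. There were 2.52 and 1.27 ICAM1 counts per CD58 count at 6 h and 0.810 and 0.413 at 24 h. ICAM1 had more counts than CD58 in both 6 h libraries and fewer in both 24 h libraries. Counts also scale with transcript length, and per kilobase of the canonical transcript CD58 was above ICAM1 in every library, with means of 54.8 against 36.5 CPM per kilobase at 6 h and 93.3 against 19.4 at 24 h. Per kilobase of coding sequence this order was reversed in 6 h replicate 1, with ICAM1 at 82.5 and CD58 at 69.6 CPM per coding kilobase. The log2 ratio was 0.84 ± 0.70 at 6 h and -0.79 ± 0.69 at 24 h (SD, n = 2), a difference of -1.63 between the times, with no length or GC trend removed. The gap between the nearest libraries of the 2 times, 6 h replicate 2 and 24 h replicate 1, was smaller than the gap between replicates, since these had log2 ratios of 0.35 and -0.30 and the outer libraries 1.33 and -1.28.

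**Figure D2:**
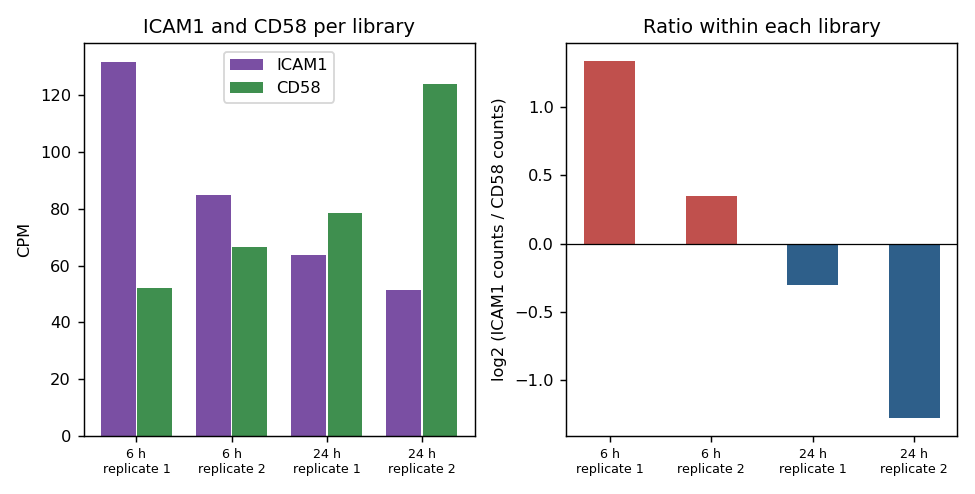
Left, CPM of ICAM1 (purple) and CD58 (green) in each library. Right, log2 ratio of ICAM1 to CD58 counts within each library, which was 1.33 and 0.35 at 6 h (red) and -0.30 and -1.28 at 24 h (blue).

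Ligands that restrain or steer the response had fold changes nearer 0 than ICAM1 and CD58. CD274, which encodes PD-L1 (ENSG00000120217, chromosome 9, 5450503 to 5470566), was at 35.7 and 29.7 CPM at 6 h and 29.3 and 31.2 CPM at 24 h. The times overlapped, and the log2 fold change was -0.11 ± 0.12 (SE). CD276, which encodes the B7 family member B7-H3 (ENSG00000103855, chromosome 15, 73976307 to 74006859), was at 247 and 225 CPM at 6 h and at 209 and 179 CPM at 24 h. Both 24 h libraries were below both 6 h libraries, with a log2 fold change of -0.29 ± 0.12, or -0.18 without 24 h replicate 2. The CD274 to CD276 count ratio was 0.144 and 0.132 at 6 h and 0.140 and 0.175 at 24 h, so B7-H3 transcripts had several times the counts of PD-L1 in every library.

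PVR, the poliovirus receptor that binds the activating receptor CD226 and the inhibitory receptor TIGIT (ENSG00000073008, chromosome 19, 45147098 to 45166850), was at 98.2 and 96.9 CPM at 6 h and at 89.9 and 80.0 CPM at 24 h. Its 24 h libraries lay below its 6 h libraries, with a log2 fold change of -0.20 ± 0.10, or -0.12 without 24 h replicate 2. Its span overlaps that of CEACAM19 by 1306 bases, a gene with 44 to 105 counts where PVR had 1992 to 2610. CD47, the signal to phagocytes that is read by SIRPA (ENSG00000196776, chromosome 3, 107762145 to 107809872), was at 90.1 and 88.0 CPM at 6 h and at 94.0 and 112 CPM at 24 h. Both 24 h libraries were above both 6 h libraries, 24 h replicate 2 the most, and the log2 fold change was 0.21 ± 0.11. Without 24 h replicate 2 the value was 0.079, and with 24 h replicate 1 left out instead it was 0.33. ALCAM, the ligand of the T cell receptor CD6 (ENSG00000170017, chromosome 3, 105085753 to 105295744), was at 353 and 370 CPM at 6 h and at 365 and 367 CPM at 24 h. Its times overlapped and its log2 fold change was 0.018 ± 0.11, the smallest in size of the 8.

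The edgeR quasi-likelihood test with Benjamini-Hochberg adjustment called 0 of the 8 tested members at an adjusted p under 0.05, beside 0% of 12549 genes, of which 3061 (24.4%) had an unadjusted p under 0.05. DESeq2 called ICAM1 lower and CD58 higher, 2 of the 7 members to which it gave an adjusted p, beside 8.23% of 7410 genes (2.65% lower and 5.59% higher). The times did not overlap in 5 members, with ICAM1, CD276 and PVR lower and CD58 and CD47 higher at 24 h, beside 62.8% of tested genes (31.5% lower and 31.3% higher). Replicate 2 differed from replicate 1 in the direction of time at both times in ICAM1, CD58, CD276, PVR and ALCAM, beside 62.7% of tested genes. Fold changes were above 0 in 4 members and below 0 in 4, beside 50% of tested genes on each side. With the replicate number as a block, which nothing in the labels makes a pairing, edgeR called 5 members, 2 higher and 3 lower, beside 36.4% of tested genes (18.8% higher and 17.5% lower). These shares are set beside the counts as a background only, because the set was chosen on this contrast.

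**Figure D3:**
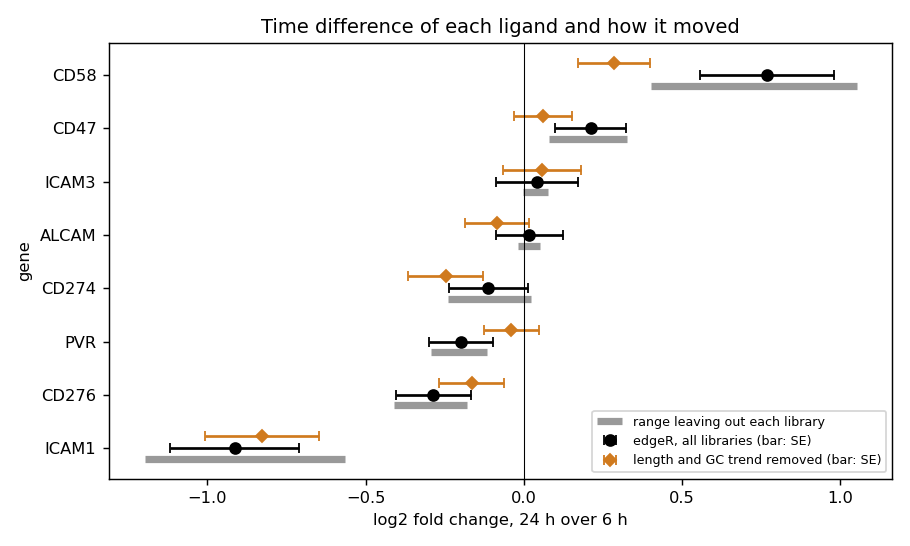
Log2 fold change of 24 h over 6 h for the 8 genes (black, bar for SE), the same after a trend on transcript length and GC was removed (orange, bar for SE), and the range when each library was left out in turn (grey). ICAM1 stayed between -1.20 and -0.56 in the grey range, and CD58 moved from 0.77 to 0.28 with the trend removed.

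The transcripts of ICAM1 and CD58 differ in the properties along which the whole data set moved. Over 12392 genes with a GENCODE transcript Spearman correlations with the time difference were -0.312 for transcript length and -0.344 for GC content, so that short and AT-rich transcripts tended to be higher at 24 h. The difference of replicate 2 from replicate 1 had correlations of -0.181 and -0.293 at 24 h and -0.233 and -0.169 at 6 h. These are correlations across genes of the same libraries, which are not independent replicates. The canonical CD58 transcript has 1086 bases and 38.3% GC, shorter than all but 6.70% of tested genes and with less GC than all but 10.2%. That of ICAM1 has 2967 bases and 56.0% GC, at percentiles 42.7 and 73.2 of the tested genes. With a loess trend on both properties removed from each library, the log2 fold change of CD58 was 0.28 ± 0.11 (SE) and that of ICAM1 -0.83 ± 0.18. The CD47 transcript, with 37.1% GC the lowest of the 8, went from 0.21 to 0.061, and PVR went from -0.20 to -0.039. CD274, with 40.7% GC, went the other way, from -0.11 to -0.25, CD276 from -0.29 to -0.16, and ALCAM turned from 0.018 to -0.085. Which transcripts of these genes the cells used was not tested.

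**Figure D4:**
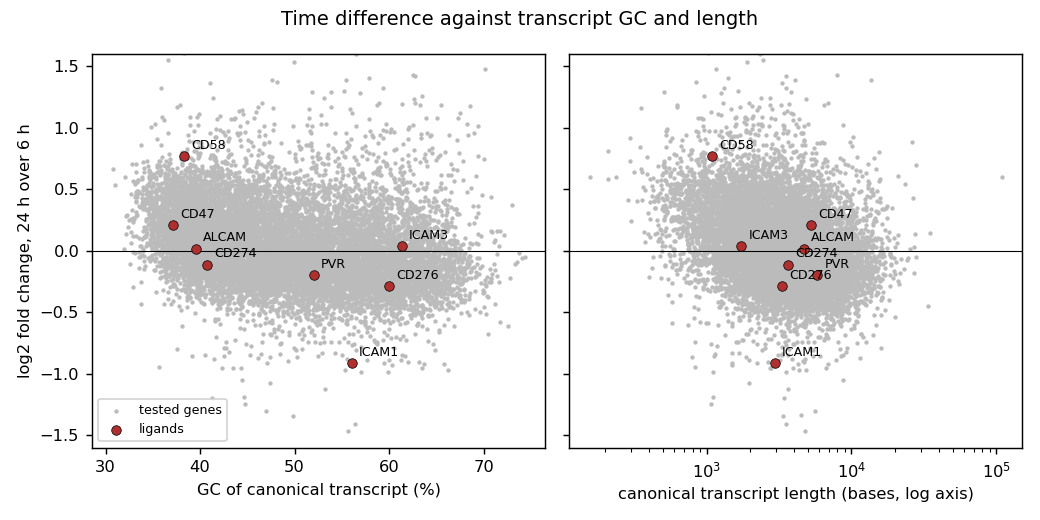
Log2 fold change of 24 h over 6 h against GC content (left) and length on a log axis (right) of the canonical transcript, with tested genes in grey and the 8 ligands in red. CD58 (38.3% GC, 1086 bases) lay at 0.77 and ICAM1 (56.0% GC, 2967 bases) at -0.91, below all but 29 genes. The vertical axis ends at 1.6 on both sides and leaves out 11 genes.

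Compared per kilobase of the canonical transcript, over all 4 libraries, ALCAM had the highest level at 77.4 ± 1.61 CPM per kilobase (SD, n = 4), followed by CD58 at 74.0 ± 28.6 and CD276 at 65.2 ± 8.77. CD58 spanned 48.1 to 114 and overlapped both of its neighbours in this order. ICAM1 followed at 27.9 ± 11.9, CD47 at 18.2 ± 2.09 and PVR at 15.8 ± 1.44 CPM per kilobase, of which ICAM1 and CD47 overlapped and CD47 and PVR overlapped. CD274 at 8.66 ± 0.806 and ICAM3 at 6.85 ± 0.205 did not overlap each other. VCAM1 was at 0.0385 CPM per kilobase and ICAM2 at 0. Per kilobase of coding sequence the order was ALCAM (208), CD276 (134), CD58 (107), CD47 (99.1), PVR (72.9), ICAM1 (51.9), CD274 (36.2) and ICAM3 (7.24 CPM per coding kilobase), so that ICAM1 moved from place 4 to place 6. The order also differed between the times. Per kilobase of the canonical transcript CD58 was above both ALCAM and CD276 at 24 h (93.3, with ALCAM at 77.9 and CD276 at 58.8) and below both at 6 h (54.8, with ALCAM at 76.9 and CD276 at 71.6). ICAM1 was at 36.5 at 6 h, where CD47 was at 16.8, and at 19.4 beside CD47 at 19.5 CPM per kilobase at 24 h.

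The genes whose profile over the 4 libraries was closest to that of ICAM1, by Euclidean distance of centred log2 CPM among 10358 genes with a mean of at least 5 CPM, were TNC (0.0880), CSF3 (0.111), FN1 (0.130), TRAF1 (0.130) and C3 (0.135). TNC encodes the matrix protein tenascin-C, CSF3 granulocyte colony-stimulating factor, FN1 fibronectin, TRAF1 an adaptor of TNF receptors and C3 the central complement component. All 5 were highest in 6 h replicate 1, as was ICAM1, and their log2 fold changes ran from -0.97 in TRAF1 to -0.80 in FN1 and C3. Closest to CD58 were ITGAE (0.0493), an integrin subunit, ITGB3BP (0.0586), a kinetochore protein, CKS2 (0.0622), a partner of cyclin-dependent kinases, KCTD4 (0.0785) and ZNF692 (0.0791), a zinc finger gene. All 5 were highest in 24 h replicate 2, with log2 fold changes of 0.69 to 0.78. ITGAE and ZNF692 have GC contents of 54.6% and 59.7%, unlike CD58, and ITGB3BP, CKS2 and KCTD4 ones of 36.4%, 41.4% and 39.1%. With 4 libraries many profiles are alike, and the distances are a description.

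The receptors that leukocytes use for these ligands were largely missing, with 4 of 14 genes passing the filter (median log2 fold change -0.082). edgeR called 0 of these 4 (0% of all tested genes) and DESeq2 0 of the 2 to which it gave an adjusted p (8.23% of all such genes). CD2, the receptor of CD58, had 0 to 1 count, ITGAL of LFA-1 3 to 12 counts, PDCD1 (PD-1) 0 to 1 and CD6 0, while ITGB2 averaged 2.36 (24 h) and 3.51 CPM (6 h). SIRPA and ITGAX were at higher levels. SIRPA, the receptor of CD47, averaged 183 ± 18.9 (24 h) and 218 ± 10.5 CPM (6 h), with a log2 fold change of -0.25 ± 0.11, though reads could be shared with its close paralogs. ITGAX, an integrin subunit of dendritic cells, was at 28.2 and 26.5 CPM although its relative ITGAM had 2 to 10 counts.

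Other checkpoint and co-stimulatory ligands gave 14 tested genes of 25 listed, 6 with a fold change above 0 and 8 below, with a median of -0.015 beside a median of 0.00019 over all tested genes. edgeR called 0 of the 14 (0% of all tested genes) and DESeq2 0 of the 7 with an adjusted p (8.23% of all such genes). The highest were BTN3A2, a butyrophilin recognised in gamma-delta T cell responses, at 111 and 112 CPM at 24 h and 6 h, CD40, a TNF receptor family member, at 87.7 and 91.5 CPM, and TNFSF9, the ligand of the co-stimulatory receptor 4-1BB, at 46.6 and 54.4 CPM. ICOSLG, the ligand of ICOS, averaged 15.9 ± 0.753 (24 h) and 21.9 ± 3.44 CPM (6 h, log2 fold change -0.46 ± 0.14), and VSIR, which encodes the checkpoint protein VISTA and is listed as C10orf54, at 8.13 ± 1.62 and 10.2 ± 0.845 CPM (-0.33 ± 0.18). CD80, CD86 and CD48 had 0 counts. CD24 was not analysed here.

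Nectins and nectin-like genes, the family of PVR (NECTIN genes are listed by their older PVRL symbols), gave 6 tested genes of 7, 3 on each side of 0 (median -0.16). edgeR called 0 of 6 (0% of all tested genes) and DESeq2 0 of the 3 with an adjusted p (8.23% of all such genes). NECTIN2, which shares the receptors TIGIT and CD226 with PVR, averaged 212 ± 18.8 (24 h) and 273 ± 29.9 CPM (6 h, log2 fold change -0.36 ± 0.12), and NECTIN1 at 37.6 ± 4.47 and 50.6 ± 5.57 CPM (-0.43 ± 0.13). NECTIN3 was at 62.7 and 61.0 CPM, with a fold change of 0.040 ± 0.096. Both NECTIN1 and NECTIN2 were lower in each 24 h library than in each 6 h library, as was PVR, beside 31.5% of all tested genes. Ligands of NKG2D and other natural killer receptors gave 9 tested genes of 10, 6 above 0 and 3 below (median 0.14). edgeR called 0 of the 9, and DESeq2 gave an adjusted p to 1 of them, which it did not call, beside the same shares of all genes. MICA averaged 53.7 ± 2.31 (24 h) and 48.8 ± 0.403 CPM (6 h), RAET1E at 13.9 ± 1.88 and 10.7 ± 1.38 CPM (log2 fold change 0.37 ± 0.16), ULBP2 at 18.0 and 19.6 CPM and ULBP3 at 6.53 and 7.95 CPM (-0.29 ± 0.16). These genes are close paralogs, so reads may be split between them.

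Other immunoglobulin-superfamily and vascular adhesion genes gave 8 tested genes of 15, all 8 with fold changes below 0, beside 50% of all tested genes. The median was -0.18, or -0.086 with the length and GC trend removed, where JAM3 was above 0. The times did not overlap in 2 of the 8, both lower at 24 h, beside 31.5% of all tested genes. ICAM5, JAM2, JAM3, NCAM1 and ESAM averaged only 0.493 to 2.35 CPM, with SE of 0.28 to 0.46. edgeR called 0 of the 8 (0% of all tested genes) and DESeq2 0 of the 3 with an adjusted p (8.23% of all such genes). F11R, a junctional adhesion molecule, averaged 151 (24 h) and 169 CPM (6 h), BCAM, a laminin receptor, at 93.3 and 111 CPM, and MCAM at 51.3 and 56.5 CPM. The selectins SELE and SELP had 0 counts. PECAM1 was not analysed here. A list of 8 partners held genes that anchor, stabilise or shed the ligands, and also THBS1, which does none of these. All 8 were tested, 2 above and 6 below 0 (median -0.18), beside 50% of all tested genes on each side. DESeq2 called 1 of the 7 with an adjusted p, MSN, lower, which was its 1 call among the 23 genes of the 6 lists with an adjusted p (8.23% over all such genes). edgeR called 0 of the 49 tested genes of these lists. MSN encodes moesin, which with ezrin links the tails of ICAM proteins to actin, and averaged 544 ± 76.9 (24 h) and 731 ± 93.7 CPM (6 h, log2 fold change -0.43 ± 0.15). EZR, the gene of ezrin, was at 158 ± 20.2 and 200.3 ± 13.9 CPM (-0.34 ± 0.12). RDX, the gene of radixin in the same list, went the other way, at 212 ± 15.5 and 181 ± 4.34 CPM (0.23 ± 0.10). CMTM6, which stabilises PD-L1 and CD58 at the cell surface, was at 248 ± 5.03 and 235 ± 11.7 CPM (0.075 ± 0.10), and ADAM10, a protease that sheds surface proteins, at 235 ± 22.4 and 276 ± 28.9 CPM (-0.23 ± 0.12).

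**Figure D5:**
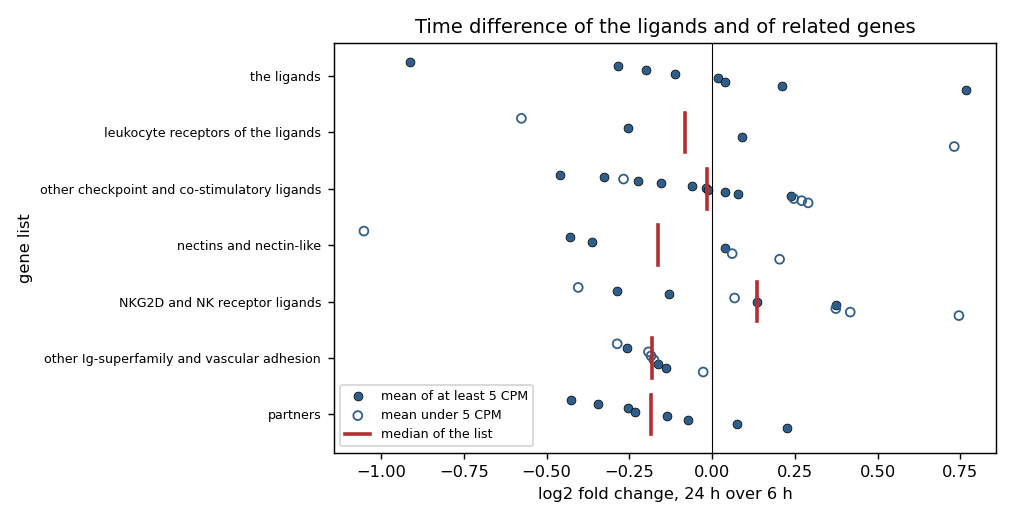
Log2 fold change of 24 h over 6 h for each tested gene of the ligand set and of 6 lists of related genes, filled where the mean was at least 5 CPM and open where it was lower, with red bars for the median of each list of related genes. ICAM1 and CD58 lay at -0.91 and 0.77, and the filled points of the other lists between -0.46 and 0.37. Open points of these lists reached further, to -1.05 ± 0.49 (SE) in CADM1 and 0.75 ± 0.31 in CLEC2D.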

How the data were processed

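RNA-seq counts of TPC1 cells under BGJ398 were analysed, with 2 libraries at 6 h and 2 at 24 h. The authors deposited whole-number read counts per gene with hg19 coordinates, without normalization. The submitters' processing notes name STAR 2.3 and DESeq2, while the study's methods name a later STAR release. The read counter, its annotation and its strand setting were not given in the sources used here, so overlapping genes may share reads.

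Counts were tested with the edgeR 4.0.16 quasi-likelihood test in R 4.3.3 (TMM factors, filterByExpr, 12549 genes, Benjamini-Hochberg adjusted p under 0.05), with DESeq2 1.42.0 as the alternative. CPM and fold changes come from the edgeR normalization. Transcript length and GC were those of the canonical GENCODE 44 transcript, and their loess trend (span 0.3) entered as offsets. Promoter windows were RefSeq sequences on GRCh38.p14, used for sequence only. The tests were tried on simulated data with known changes first. Replicates were distinct, with a chi-square of 31.3 (24 h) and 15.8 (6 h) per degree of freedom.

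The members, lists and motifs were chosen with earlier results of these data known. All 10 members are named. From each list up to 3 genes with the highest mean CPM and up to 2 with the largest fold change at a mean of at least 5 CPM are named, together with the 5 profiles closest to ICAM1 and to CD58. CD2, ITGAL, PDCD1, CD6, ITGAM, ICAM5, JAM2, JAM3, NCAM1, ESAM, RDX, CADM1, CLEC2D, THBS1 and the genes at or near 0 were named after their values were seen. Lymphocyte markers had no tested gene. A further thyroid marker is not reported here.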

Additional observations from a re-analysis of the deposited data

How the results depend on the processing

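The number of genes called was 0 by edgeR, and also 0 with DESeq2 size factors, library totals alone, no filter, a minimum mean of 10 CPM and the length and GC trend removed. DESeq2 called 610 genes. When 1 library was dropped, and the remaining one of its time was assumed as variable as the other time's pair, edgeR called between 1 (24 h replicate 2 or 6 h replicate 1 dropped) and 3126 genes (24 h replicate 1 dropped), with 887 when 6 h replicate 2 was dropped. The cause was not tested. Over the 8 fits that kept all libraries in other settings and the 4 that left one out, ICAM1 stayed below 0 and CD58 above 0. Both genes were chosen on this contrast and their times did not overlap, so dropping a library could hardly change the sign, and the constant sign is a description. ICAM1 ran from -1.20 to -0.56 and CD58 from 0.40 to 1.05 when each library was left out. The difference between the times (24 h minus 6 h) in the log2 ratio of ICAM1 to CD58 counts then ran from -2.12 to -1.14, with no length or GC trend removed. A ratio within a library does not cancel such a trend. Removal of the length and GC trend gave 0.28 for CD58 and -0.83 for ICAM1, and 0.28 and -0.81 with the replicate block too. This alternative by its construction takes out what transcripts of like length and GC share.

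Blocking on the replicate number, edgeR called 4565 genes (36.4%), 5 of the members among them (ICAM1, CD276 and PVR lower, CD58 and CD47 higher), and 3231 genes once the trend was also removed. Of the members, which were chosen on this contrast, 4 were then called, beside 3231 of all 12549 tested genes. PVR (-0.039) and CD47 (0.060) were no longer called, and CD274 (-0.24) was called. ICAM1 was -0.89 and CD58 0.75 with the block. The replicate differences at the 2 times correlated at 0.430 across genes, but the labels tie no litter, day or culture to a number, so it is not taken as a pairing. The time and replicate differences correlated at 0.666 across genes. The fold changes of ICAM3, ALCAM and CD274 changed sign in some of these fits, and their direction is not settled. Depth limits VCAM1 and ICAM2.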

Other observations

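CD99, an adhesion molecule of leukocyte passage listed with the vascular adhesion genes, had 0 to 3 counts per library and was named after its values were seen. The table held 15 genes in the first pseudoautosomal region of chromosome X, of which 12 had no count in any library. The highest count among them was 3, and SLC25A6, the gene of a mitochondrial carrier, had 0 to 1 count. Whether these counts reflect expression was not tested, and they are not read as absence.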
